A study of Mus musculus with 96 samples.

Results

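A set of 10 of the 48795 genes in the deposited table was followed across 6 mouse genotypes in striatum and cerebral cortex: Wwox, Bub1b, Rec8, Tdrd1, Rps4l, Sec24d, Col5a2, Rsg1, Zfp991 and Zfp992. They were chosen by their read counts, which had changed in mice without the mismatch repair gene Msh6, and because they lie away from Msh6, which is on chromosome 17. The contrast of Msh6-/- with wild-type mice therefore chose the genes, and its values are given as a description with no test.

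Bulk RNA sequencing was done on both tissues of 48 mice aged 6 months on a C57BL/6 background, with 8 mice (4 of each sex) per genotype and 96 libraries in all. The groups were Q140 Msh6-/-, Q140 Msh6+/-, Q140, Msh6-/-, Msh6+/- and wild type. Q140 mice were heterozygous for a knock-in allele, a Huntington's disease model in which the Htt gene carries an expanded CAG repeat. Msh6-/- mice had lost both copies of Msh6 and Msh6+/- mice had lost a single copy. The Q140 allele was shared by Q140 Msh6-/-, Q140 Msh6+/- and Q140 mice, so a comparison among these 3 groups tested loss of Msh6 on a common Q140 background. The design of the Msh6 allele is not given in the sources used here.

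MSH6 takes part in recognising base mismatches and small loops left by DNA replication, and mismatch repair proteins are known for acting on the expanded Htt repeat in somatic cells. The 10 genes have no single shared pathway. Bub1b encodes the spindle checkpoint kinase BUBR1, Rec8 a meiotic cohesin subunit, Tdrd1 a Tudor-domain protein of the germline piRNA pathway, and Rps4l a gene related to the ribosomal protein gene Rps4x. Sec24d encodes a cargo adaptor of the COPII coat that buds from the endoplasmic reticulum, Col5a2 a chain of the fibrillar collagen type V, Rsg1 a small GTPase of ciliogenesis, and Wwox an oxidoreductase with WW domains that spans a common fragile site. Zfp991 and Zfp992 are annotated as zinc finger protein genes.

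On GRCm38, with GENCODE M21 annotation, Wwox lies on chromosome 8 (114439655 to 115352708, plus strand) and Bub1b on chromosome 2 (118598211 to 118641591, plus strand). Rec8 lies on chromosome 14 (55618037 to 55625395, plus strand) and Tdrd1 on chromosome 19 (56826209 to 56870012, plus strand). Rps4l is annotated as a transcribed processed pseudogene on chromosome 6 (148354656 to 148355598, plus strand), within Tmtc1 on the other strand. Sec24d lies on chromosome 3 (123267455 to 123365641, plus strand) and Col5a2 on chromosome 1 (45374321 to 45503282, minus strand). The remaining 3 genes share chromosome 4: Rsg1 (141213956 to 141226756), Zfp992 (146449023 to 146470292) and Zfp991 (147132038 to 147180579), all on the plus strand.

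Sequence comparison of GENCODE M21 transcripts set how separately each gene could be counted. Zfp991 and Zfp992 were 99.3% identical over 2490 aligned bases, and their reading frames of 573 codons each differed at 8 of 1720 aligned bases. The window of 120 bases below, bases 607 to 726 of the Zfp991 frame, shows that near-identity, with the differing bases in capitals:

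Zfp991: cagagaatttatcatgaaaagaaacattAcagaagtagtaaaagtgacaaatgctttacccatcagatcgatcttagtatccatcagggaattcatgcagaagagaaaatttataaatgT
Zfp992: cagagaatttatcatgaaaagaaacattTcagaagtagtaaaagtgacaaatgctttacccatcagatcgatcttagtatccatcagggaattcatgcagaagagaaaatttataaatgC

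Only 2 bases separate the pair in this window, so the division of reads between Zfp991 and Zfp992 is uncertain, and their values below may share reads. Zfp991 matched 18 genes at 90% identity or more and 8 at 95%, and Zfp992 matched 19 and 9, so reads of those genes may also be among them. A copy at 95% identity covered 99.9% of the Zfp991 transcript and 54.8% of that of Zfp992. Rps4l was a different case, because its reading frame of 262 codons matched that of Rps4x at 79.95% of 783 aligned bases. The aligned window with the most differences, bases 484 to 603 of the Rps4x frame, has 35 differing bases, again in capitals:

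Rps4l: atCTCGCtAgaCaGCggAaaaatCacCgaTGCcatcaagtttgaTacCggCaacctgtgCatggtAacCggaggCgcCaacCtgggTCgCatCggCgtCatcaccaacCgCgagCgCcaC
Rps4x: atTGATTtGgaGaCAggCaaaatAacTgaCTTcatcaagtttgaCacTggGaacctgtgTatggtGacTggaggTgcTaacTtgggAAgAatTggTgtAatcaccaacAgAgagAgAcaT

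The closest annotated copy of Rps4l was Rps4l-ps, 93.5% identical over 789 bases. Rsg1 shared a stretch of at least 100 bases at 90% identity or more with 106 other genes, none of them at 95%. Wwox, Bub1b, Rec8, Tdrd1, Sec24d and Col5a2 had no copy at 90% identity over 100 bases.

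Libraries held 12403528 to 22886441 counts. Levels are given in CPM, counts scaled to 1000000 per library, as the lowest, the median and the highest of the 8 mice. Msh6 itself followed the labels: in cortex it had 7.33, 8.13 and 8.96 CPM in Q140 Msh6-/- mice, against 19.0, 20.2 and 21.8 CPM in Q140 mice, and in striatum 7.31, 8.13 and 9.53 CPM in Q140 Msh6-/- mice, against 18.1, 18.8 and 20.1 CPM in Q140 mice. Transcript from the locus thus remained in all Msh6-/- mice, and the groups did not overlap. Sums over 10 striatal projection neuron markers had a median of 12970 CPM in wild-type striatum and 394 CPM in wild-type cortex, and sums over 9 cortical glutamatergic markers had a median of 560 CPM in striatum and 2220 CPM in cortex. A single striatal library, from Q140 Msh6-/- mouse 21-3, held 2835 CPM over 9 choroid plexus and ependyma markers, where the median of its group was 44.2 CPM, and 2 of the 5 markers tested passed in Q140 Msh6-/- against Q140 striatum. Results on Q140 Msh6-/- striatum were therefore also computed without it. Animal number prefixes, whose meaning the labels do not state, ran from 21 to 38 in Q140 Msh6-/- mice, 14 to 29 in Q140 mice, 14 to 33 in Msh6-/- mice and 13 to 21 in wild-type mice.

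**Figure D1:**
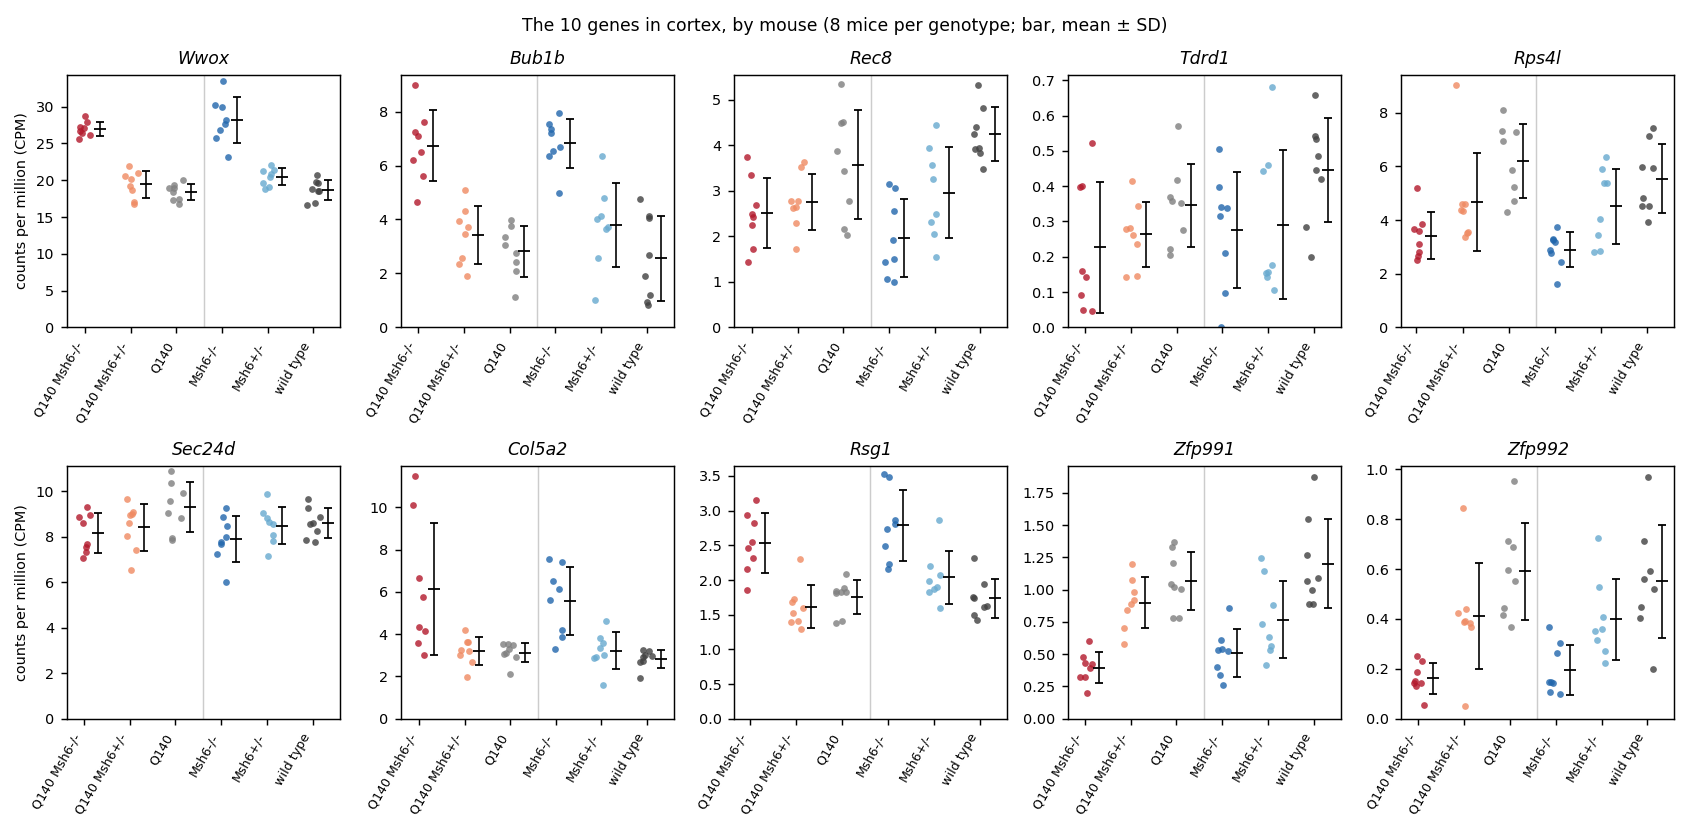
CPM of each of the 10 genes in cortex (y axis, linear from 0) for 6 genotypes (x axis), with a point per mouse and a bar for the mean ± SD of 8 mice. All 8 Q140 Msh6-/- mice lie above all 8 Q140 mice for Wwox and Bub1b and below them for Zfp991 and Zfp992.

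With Q140 in the background, 7 of the 9 genes tested in cortex and 4 of the 10 tested in striatum differed between Q140 Msh6-/- and Q140 mice. In cortex Wwox, Bub1b, Col5a2 and Rsg1 were higher and Rps4l, Zfp991 and Zfp992 lower in Q140 Msh6-/- than in Q140 mice. In striatum Bub1b was higher and Rps4l, Sec24d and Zfp991 were lower; without mouse 21-3 Zfp992 joined them, for 5 genes. Adding the animal number prefix as a covariate left 5 genes in cortex and 2 in striatum (Rps4l and Zfp991). Further alternatives that left fewer genes are given at the end. The Q140 Msh6-/- and Q140 mice took no part in the contrast that chose the genes. However, results of their comparison were known when the genes were proposed, so it is not independent support. The threshold was a Benjamini-Hochberg adjusted p under 0.05 in edgeR's quasi-likelihood test over all genes; it was passed by 0.153% of the 17622 genes tested in cortex (0.0794% higher and 0.0738% lower) and by 0.177% of the 17503 tested in striatum (0.114% higher and 0.0628% lower). Tdrd1 fell under the count filter in cortex and was tested in striatum alone. In bulk tissue, fewer cells of a type and less RNA per cell cannot be told apart.

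Among the genes of chromosome segregation, Bub1b was higher in Q140 Msh6-/- than in Q140 mice in both tissues. In cortex it had 4.65, 6.80 and 8.97 CPM in Q140 Msh6-/- mice, against 1.13, 2.90 and 3.98 CPM in Q140 mice. Every Q140 Msh6-/- mouse lay above every Q140 mouse. The difference was 1.26 ± 0.23 on the log2 scale (SE; adjusted p = 0.00235, edgeR quasi-likelihood). Striatal levels of Bub1b were 2.07, 3.01 and 3.64 CPM in Q140 Msh6-/- mice, against 0.614, 1.34 and 2.36 CPM in Q140 mice. Here the groups overlapped, with 6 of 8 Q140 Msh6-/- mice above all Q140 mice, and the log2 difference was 1.01 ± 0.23 (adjusted p = 0.0386). With the animal number prefix as a covariate the striatal difference was 0.90 (adjusted p = 0.181), and it no longer passed, nor did it with limma on log2(FPKM + 0.1), at 0.89 (adjusted p = 0.0931).

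Rec8, whose product replaces RAD21 in meiotic cohesin, did not pass the threshold on the Q140 background. Its cortical levels were 1.44, 2.46 and 3.75 CPM in Q140 Msh6-/- mice, against 2.03, 3.65 and 5.34 CPM in Q140 mice, a log2 difference of -0.50 ± 0.19 (adjusted p = 0.633). Its striatal levels were 2.48, 3.09 and 5.52 CPM in Q140 Msh6-/- mice, against 3.54, 5.31 and 7.48 CPM in Q140 mice, a log2 difference of -0.60 ± 0.20 (adjusted p = 0.562). In each tissue 7 of 8 Q140 Msh6-/- mice lay below the Q140 mean, and the groups overlapped. Without Q140, the description from the contrast that chose the gene was 1.00, 1.72 and 3.14 CPM in Msh6-/- cortex, against 3.47, 4.10 and 5.32 CPM in wild-type cortex, with no overlap. The difference of the Q140 effect between Msh6-/- and Msh6+/+ mice was 0.62 ± 0.28 for Rec8 in cortex (adjusted p = 1.00, edgeR quasi-likelihood), a value that contains the contrast that chose the gene.

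RefSeq promoter sequences (GRCm38.p6, 250 bases before to 50 after the start) were at hand for 4 of the 10 genes: Bub1b, Rec8, Sec24d and Tdrd1. The 2 chromosome segregation genes are shown, since they moved in opposite directions in Msh6-/- mice; capitals mark TCCCGC on either strand, the core letters of an E2F motif.

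Bub1b, chr2:118597961-118598260, plus strand: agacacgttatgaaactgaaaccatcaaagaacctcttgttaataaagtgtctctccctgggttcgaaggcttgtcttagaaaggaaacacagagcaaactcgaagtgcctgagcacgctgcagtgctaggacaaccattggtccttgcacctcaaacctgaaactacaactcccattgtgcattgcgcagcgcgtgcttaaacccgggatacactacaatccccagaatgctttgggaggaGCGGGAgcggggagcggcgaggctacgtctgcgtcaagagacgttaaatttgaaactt
Rec8, chr14:55617916-55618215, plus strand: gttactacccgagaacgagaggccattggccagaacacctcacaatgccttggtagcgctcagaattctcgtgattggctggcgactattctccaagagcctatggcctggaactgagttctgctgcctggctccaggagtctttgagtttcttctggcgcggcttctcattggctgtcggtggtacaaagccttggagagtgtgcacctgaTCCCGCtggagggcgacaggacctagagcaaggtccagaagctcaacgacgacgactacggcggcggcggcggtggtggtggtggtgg

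Each of these promoters held TCCCGC at 1 place, as did that of Sec24d; on either strand these letters occur in 20.0% of 32851 mouse promoters in the table. The letters CACGTG, an E-box, were found at 1 place in Tdrd1, and occur in 7.15% of all promoters. That place is shared by the overlapping promoters of the first 2 of 3 Tdrd1 start sites. CCAAT on either strand was found at 1 place in Bub1b, 3 in Rec8 and 1 in Sec24d, and in 37.4% of all promoters. TTTGAA, a cell cycle homology region, was found at 1 place in Bub1b and in 17.9% of all promoters. These matches describe letters and not binding.

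Tdrd1 was scarce in brain. In striatum it had 0.348, 0.609 and 0.806 CPM in Q140 Msh6-/- mice (6 to 14 reads per library), against 0.561, 0.958 and 1.30 CPM in Q140 mice (11 to 25 reads). All 8 Q140 Msh6-/- mice lay below the Q140 mean, the groups overlapped, and the log2 difference of -0.74 ± 0.30 did not pass (adjusted p = 0.814). Cortical libraries held 0 to 15 Tdrd1 reads each. Without Q140, striatal Tdrd1 was 0.178, 0.399 and 0.807 CPM in Msh6-/- mice, against 0.503, 1.11 and 2.25 CPM in wild-type mice.

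Rps4l was lower without Msh6 in both tissues. In striatum it had 2.84, 5.90 and 8.32 CPM in Q140 Msh6-/- mice, against 7.60, 9.84 and 14.2 CPM in Q140 mice, a log2 difference of -0.81 ± 0.14 (adjusted p = 0.000821). In cortex it had 2.50, 3.34 and 5.20 CPM in Q140 Msh6-/- mice, against 4.29, 6.39 and 8.10 CPM in Q140 mice, a log2 difference of -0.86 ± 0.17 (adjusted p = 0.00943). All 8 Q140 Msh6-/- mice were below the Q140 mean in each tissue, and 6 in striatum and 7 in cortex were below every Q140 mouse. Rps4x, the ribosomal protein gene compared above, did not pass: it averaged 73.4 ± 3.14 CPM in Q140 Msh6-/- cortex and 74.0 ± 5.91 CPM in Q140 cortex (SD, n = 8 each; log2 difference -0.01 ± 0.04, adjusted p = 0.982 in edgeR's test). Tmtc1, which overlaps Rps4l on the other strand, differed by 0.04 ± 0.04 in striatum (adjusted p = 0.972) and -0.04 ± 0.03 in cortex (adjusted p = 0.869) on the log2 scale; libraries were made with a stranded kit, but the strand setting of the counting is not given in the sources used here.

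Sec24d fell in striatum by a small amount. Its levels were 11.5, 13.4 and 15.3 CPM in Q140 Msh6-/- mice, against 13.7, 16.7 and 21.0 CPM in Q140 mice. All 8 Q140 Msh6-/- mice lay below the Q140 mean and 5 below every Q140 mouse, with a log2 difference of -0.33 ± 0.07 (adjusted p = 0.0325, edgeR quasi-likelihood). With the animal number prefix as a covariate it was -0.32 (adjusted p = 0.0852), past the threshold no longer; it also missed with limma on FPKM (adjusted p = 0.0745 and 0.0931) and when only Q140 Msh6-/- and Q140 libraries were fitted (0.0907). In cortex Sec24d had 7.05, 8.13 and 9.31 CPM in Q140 Msh6-/- mice, against 7.85, 9.32 and 10.9 CPM in Q140 mice, and the log2 difference of -0.19 ± 0.07 did not pass (adjusted p = 0.633).

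Col5a2 rose in cortex. It had 3.00, 5.04 and 11.5 CPM in Q140 Msh6-/- mice, against 2.12, 3.21 and 3.55 CPM in Q140 mice, and 7 of 8 lay above every Q140 mouse. The log2 difference was 0.97 ± 0.20 (adjusted p = 0.0153, edgeR quasi-likelihood), and 0.87 with the animal number prefix as a covariate (adjusted p = 0.112). It also missed with limma on FPKM (adjusted p = 0.141 and 0.157) and when only these 2 groups were fitted (0.168). In striatum Col5a2 had 3.10, 4.75 and 6.34 CPM in Q140 Msh6-/- mice, against 1.51, 2.42 and 3.95 CPM in Q140 mice; the log2 difference of 0.81 ± 0.19 missed the threshold (adjusted p = 0.0563), but passed with DESeq2 (0.0237) and without the count filter (0.0245). Sums over 10 fibroblast and meningeal markers, cells known for fibrillar collagen, were 114, 144 and 151 CPM in Q140 Msh6-/- cortex and 105, 130 and 153 CPM in Q140 cortex, and none of the 10 markers passed the test. Their part in the Col5a2 result was not tested.

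Rsg1 rose in cortex, with 1.85, 2.50 and 3.15 CPM in Q140 Msh6-/- mice, against 1.38, 1.83 and 2.08 CPM in Q140 mice. Of the Q140 Msh6-/- mice, 7 lay above every Q140 mouse, and the log2 difference was 0.52 ± 0.12 (adjusted p = 0.0427, edgeR quasi-likelihood). With the animal number prefix as a covariate it was 0.48 (adjusted p = 0.172), and it also missed without the count filter (0.103), without the sex term (0.0649) and when only these 2 groups were fitted (0.161). In striatum Rsg1 had 2.09, 2.43 and 3.21 CPM in Q140 Msh6-/- mice, against 2.14, 2.32 and 2.51 CPM in Q140 mice, a log2 difference of 0.08 ± 0.11 (adjusted p = 0.980).

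**Figure D2:**
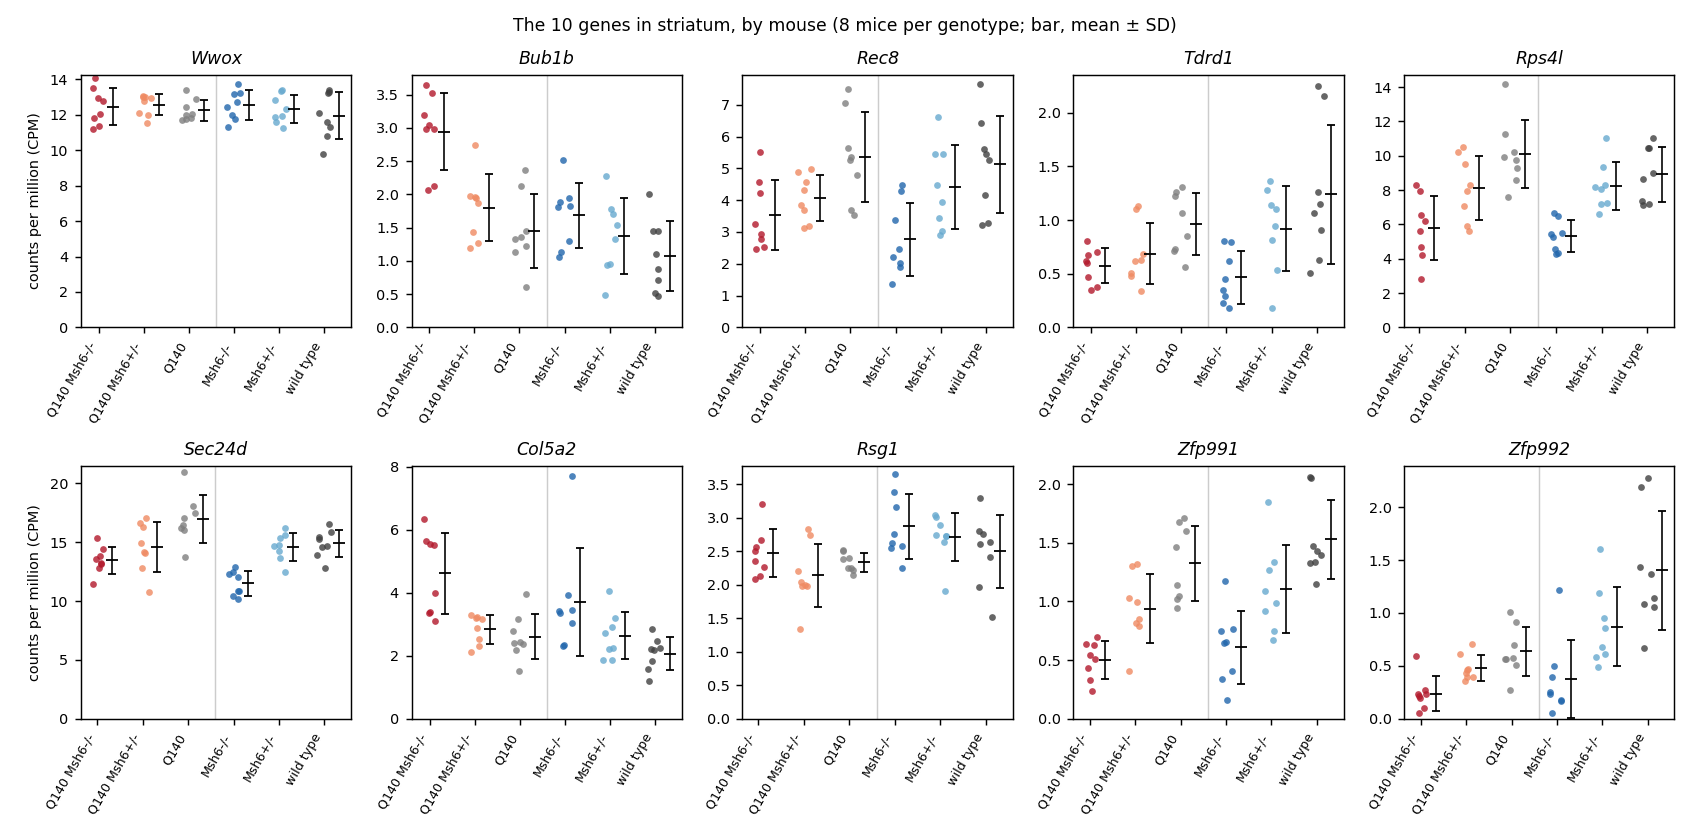
CPM of each of the 10 genes in striatum (y axis, linear from 0) for 6 genotypes (x axis), with a point per mouse and a bar for the mean ± SD of 8 mice. Zfp991 is the gene for which all 8 Q140 Msh6-/- mice lie below all 8 Q140 mice, while the Wwox points of all genotypes overlap.

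Zfp991 was lower in Q140 Msh6-/- than in Q140 mice in both tissues, with no overlap of the groups. Its striatal levels were 0.235, 0.527 and 0.693 CPM in Q140 Msh6-/- mice (3 to 13 reads), against 0.941, 1.30 and 1.71 CPM in Q140 mice (15 to 32 reads), and its cortical levels were 0.200, 0.411 and 0.601 CPM in Q140 Msh6-/- mice, against 0.778, 1.03 and 1.37 CPM in Q140 mice. No Q140 Msh6-/- mouse reached the lowest Q140 mouse in either tissue. The log2 difference was -1.37 ± 0.24 in striatum (adjusted p = 0.00147) and -1.40 ± 0.22 in cortex (adjusted p = 0.000137; edgeR quasi-likelihood). Without Q140, striatal Zfp991 was 0.161, 0.651 and 1.17 CPM in Msh6-/- mice, against 1.145, 1.41 and 2.06 CPM in wild-type mice. Those striatal groups overlapped. Zfp992, at 1 to 5 reads per Q140 Msh6-/- cortical library, had 0.0535, 0.147 and 0.250 CPM there, against 0.366, 0.574 and 0.955 CPM in Q140 cortex. These groups did not overlap, and the log2 difference was -1.83 ± 0.31 (adjusted p = 0.000760). In striatum Zfp992 had 0.0563, 0.222 and 0.598 CPM in Q140 Msh6-/- mice, against 0.274, 0.571 and 1.01 CPM in Q140 mice. The highest of these Q140 Msh6-/- libraries was 21-3; the log2 difference was -1.40 ± 0.37 with it (adjusted p = 0.160) and -1.81 without it (adjusted p = 0.0359).

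Wwox differed between the tissues. In cortex it had 25.5, 26.9 and 28.7 CPM in Q140 Msh6-/- mice, against 16.7, 18.7 and 20.1 CPM in Q140 mice. The groups were far apart, and the log2 difference of 0.55 ± 0.06 had the smallest adjusted p of the 10 genes (1.23e-09, edgeR quasi-likelihood). In striatum it had 11.2, 12.4 and 14.1 CPM in Q140 Msh6-/- mice, against 11.7, 12.01 and 13.4 CPM in Q140 mice, a log2 difference of 0.03 ± 0.05 (adjusted p = 0.982). A test of this tissue difference, added after the values by tissue had been seen, gave -0.53 ± 0.08 for striatum minus cortex (adjusted p = 3.47e-05). Wwox was the only gene to pass among 18440 tested, a share of 0.00542%; with the mouse as a replicate block its value was -0.53 (adjusted p = 4.14e-05). For the other 9 genes that difference had an adjusted p of 1.00; Rsg1 had -0.44 ± 0.18 (unadjusted p = 0.0131).

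**Figure D3:**
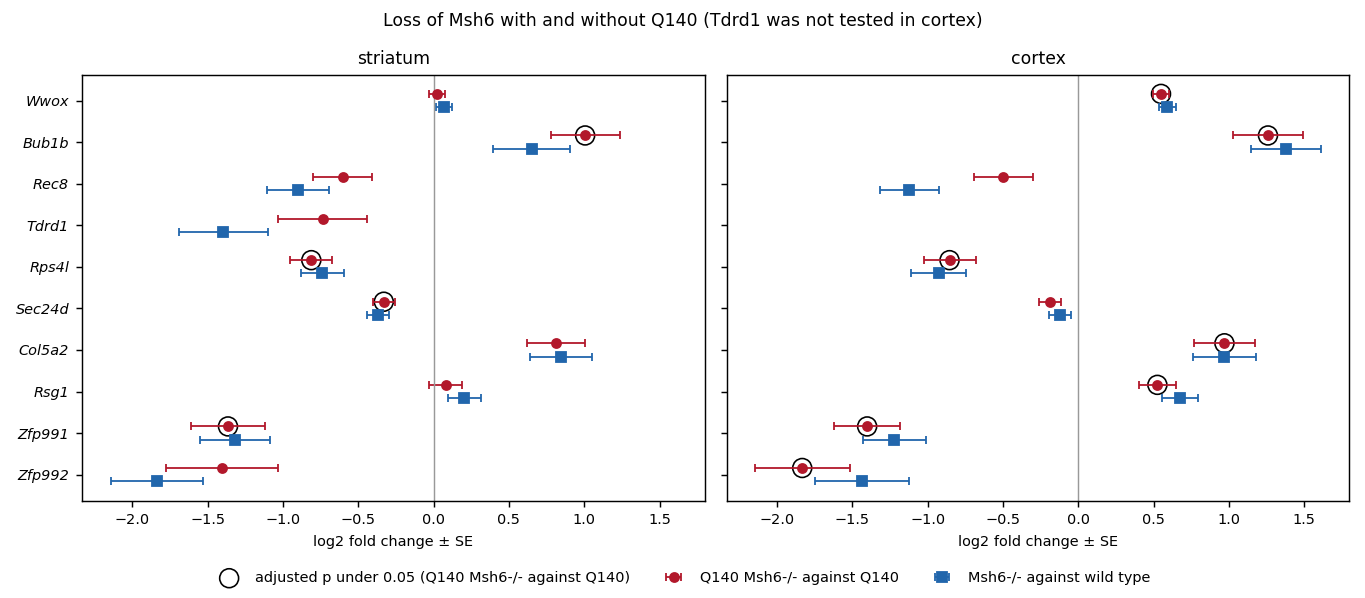
Log2 fold change ± SE (x axis) of each of the 10 genes (y axis) in striatum and cortex, for Q140 Msh6-/- against Q140 (red circles) and Msh6-/- against wild type (blue squares, the contrast that chose the genes). Rings mark an adjusted p under 0.05 in the Q140 Msh6-/- comparison: 4 genes in striatum and 7 in cortex.

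Groups that did not overlap were found in the Q140 Msh6-/- comparison for 4 of the 9 genes tested in cortex (Wwox, Bub1b, Zfp991 and Zfp992), where 0.0794% of all genes had none, and for Zfp991 among 10 in striatum, where 0.0743% had none. In the contrast that chose the genes, Msh6-/- against wild type, the choice itself fixed that many of them were past the threshold (8 of 9 in cortex and 5 of 10 in striatum, where 0.131% and 0.0971% of all genes were) and that groups did not overlap (6 genes in cortex and 1 in striatum, where 0.0851% and 0.0686% of all genes did not). Nothing is read from these counts, and the levels that follow are a description. Wwox, for example, had 23.1, 28.0 and 33.5 CPM in Msh6-/- cortex, against 16.6, 18.7 and 20.8 CPM in wild-type cortex, and 11.3, 12.6 and 13.7 CPM in Msh6-/- striatum, against 9.76, 11.8 and 13.4 CPM in wild-type striatum. Bub1b had 4.99, 6.96 and 7.93 CPM in Msh6-/- cortex, against 0.847, 2.29 and 4.77 CPM in wild-type cortex. Its levels were 1.06, 1.82 and 2.52 CPM in Msh6-/- striatum, against 0.472, 0.989 and 2.00 CPM in wild-type striatum, where the groups overlapped. The interaction of Q140 and Msh6-/- contains the Msh6-/- against wild-type difference that chose the genes, so it is no independent test of them. It passed for none of the 10 genes, and for 0.0% of all genes in either tissue (edgeR quasi-likelihood; 876 genes in striatum and 692 in cortex had an unadjusted p under 0.05, and DESeq2 called 1 gene in striatum and 0 in cortex).

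Mice with a single copy of Msh6 were then compared, using the same Q140 and wild-type mice as the comparisons above. None of the 10 genes passed in Q140 Msh6+/- against Q140 mice, beside 0.0113% of all genes in cortex and 0.00571% in striatum, nor in Msh6+/- against wild-type mice, beside 0.00567% in cortex and 0.0114% in striatum. The smallest adjusted p among them on the Q140 background was 0.573, for cortical Rps4l (-0.41 ± 0.17 on the log2 scale, edgeR quasi-likelihood; DESeq2 also called none of the 10). At an unadjusted p under 0.05 there were 2 genes in cortex, with 1388 of the 17622 genes tested, and 4 in striatum, with 753 of 17503, on the Q140 background. Without Q140 there were 4 in cortex, with 581 of all genes, and 2 in striatum, with 992, against the wild-type values that had entered the choice. By mean, the Msh6+/- group lay between Msh6-/- and wild type for 10 of 10 genes in both tissues, where the outer values come from the contrast that chose the genes. On the Q140 background the Q140 Msh6+/- mean lay between the Q140 Msh6-/- and Q140 means for 9 genes in cortex and 8 in striatum. The cortical counts include Tdrd1, which was under the count filter there. How many of all genes have such an order of means was not computed, so these counts are not read as a result. Cortical Wwox, at 16.8, 19.7 and 21.9 CPM in Q140 Msh6+/- mice, overlapped Q140 and not Q140 Msh6-/- mice. Cortical Zfp991, at 0.576, 0.907 and 1.20 CPM in Q140 Msh6+/- mice, overlapped both, whereas Msh6 itself in Q140 Msh6+/- cortex (11.9, 13.4 and 14.5 CPM) overlapped neither.

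The Q140 allele was examined next, with Msh6 genotype held equal and in mice that also entered the comparisons above. In striatum it changed a large share of the transcriptome, and 2 of the 10 genes passed in each of 3 comparisons: 29.7% of all genes passed in Q140 against wild type, 31.2% in Q140 Msh6+/- against Msh6+/- and 33.0% in Q140 Msh6-/- against Msh6-/-. The share of the 10 genes was thus not above the background. Wild-type and Msh6-/- values had entered the choice of the genes, so the first and the last of these comparisons are not independent of it. Cell type markers moved with the allele. Of 10 striatal projection neuron markers, 9 were lower and 1 higher in Q140 than in wild-type striatum (list median -0.67 on the log2 scale). In Q140 Msh6-/- against Msh6-/- striatum 9 were also lower and 1 higher (-0.72). In the same order, 7 and 6 of 8 microglia markers and 3 and 5 of 8 endothelial markers were lower. So were 4 and 3 of 8 astrocyte and 2 and 6 of 8 oligodendrocyte markers. Of 8 cortical glutamatergic markers tested, 3 and 3 were higher and 1 and 2 lower. None of the fibroblast and meningeal or blood markers passed. Of 5 choroid plexus and ependyma markers tested, 4 were higher in Q140 Msh6-/- than in Msh6-/- striatum, a group that includes mouse 21-3. The part of these markers in the results below was not tested. Zfp992 was lower in Q140 mice, at 0.274, 0.571 and 1.01 CPM against 0.666, 1.26 and 2.28 CPM in wild-type mice (log2 difference -1.10 ± 0.28, adjusted p = 0.00176), and in Q140 Msh6+/- mice, at 0.360, 0.446 and 0.710 CPM against 0.485, 0.768 and 1.61 CPM in Msh6+/- mice (-0.85 ± 0.31, adjusted p = 0.0327; edgeR quasi-likelihood, and 0.0687 with limma on log2(FPKM + 0.1)). In cortex Zfp992 differed by 0.13 ± 0.25 between Q140 and wild-type mice (adjusted p = 0.980). Zfp991, with which it may share reads, did not pass in either striatal comparison (-0.21 ± 0.21 and -0.25 ± 0.23). Sec24d, chosen with Msh6-/- striatum being low, was higher in Q140 than in wild-type striatum (0.19 ± 0.07, adjusted p = 0.0425; 0.0504 to 0.0825 under 4 alternatives) and in Q140 Msh6-/- than in Msh6-/- striatum (0.23 ± 0.08, adjusted p = 0.0162).

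Bub1b was higher in Q140 Msh6-/- striatum, at 2.07, 3.01 and 3.64 CPM against 1.06, 1.82 and 2.52 CPM in Msh6-/- striatum. Of the Q140 Msh6-/- mice, 6 of 8 lay above every Msh6-/- mouse (log2 difference 0.79 ± 0.23, adjusted p = 0.00459, edgeR quasi-likelihood). The other striatal comparisons had the same direction and did not pass in that test. They were 0.44 ± 0.26 for Q140 against wild type (adjusted p = 0.21) and 0.38 ± 0.25 for Q140 Msh6+/- against Msh6+/- (adjusted p = 0.251). Rsg1 was lower in Q140 Msh6+/- than in Msh6+/- striatum (-0.36 ± 0.11, adjusted p = 0.00958). It did not pass in Q140 Msh6-/- against Msh6-/- striatum (-0.21 ± 0.11, adjusted p = 0.125) or in Q140 against wild-type striatum (-0.09 ± 0.11, adjusted p = 0.588). In cortex none of the 9 genes passed in these 3 comparisons, whose backgrounds were 0.017%, 0.193% and 0.136% in the same order; DESeq2 called none of them either, and at an unadjusted p under 0.05 there were 0, 1 and 0 of them, with 1081, 2094 and 945 of the 17622 genes tested.

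All 10 genes differed between striatum and cortex over all genotypes, as did 86.8% of all genes (45.1% higher and 41.7% lower in striatum). Wwox, Bub1b and Col5a2 were lower in striatum (log2 differences of -0.85 ± 0.03, -1.34 ± 0.11 and -0.40 ± 0.08), and the other 7 were higher there, from 0.25 ± 0.05 for Rsg1 to 1.34 ± 0.14 for Tdrd1, with adjusted p-values of 0.00206 or less in edgeR's quasi-likelihood test. On a scale per length, the deposited FPKM, mean levels in wild-type striatum ran from 9.21 for Rps4l through 2.29 for Sec24d, 1.82 for Rec8, 1.30 for Rsg1, 1.14 for Wwox and 0.510 for Zfp991 to 0.210 for Col5a2. In wild-type cortex they ran from 5.84 for Rps4l through 1.83 for Wwox to 0.0815 for Tdrd1. Rps4x, at 55.3 FPKM in striatum and 43.8 in cortex, was well above Rps4l. By sex, Rsg1 was lower in female than in male striatum (-0.24 ± 0.06, adjusted p = 0.0135), beside 5.54% of all genes; none of the 9 genes passed in cortex (smallest adjusted p = 0.0591, for Sec24d), beside 6.31%.

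Since both tissues came from the same mice, it was asked whether a mouse high for a gene in cortex was also high in striatum, once the mean of its genotype and sex had been subtracted. Over 48 mice, Rps4l had Pearson r = 0.493 (permutation p = 0.00037, adjusted over the 10 relations 0.0037) and Spearman rho = 0.522 (p = 0.00058, adjusted 0.0058). Rec8 had r = 0.504 (permutation p = 0.00185, adjusted 0.00925) and rho = 0.452 (p = 0.00533, adjusted 0.0266). Without the 2 mice farthest from the median in cortex, r was 0.469 for Rps4l and 0.531 for Rec8 (permutation test, adjusted p = 0.0079 each). Bub1b (r = 0.424, rho = 0.424) and Tdrd1 (r = 0.353, rho = 0.367) passed by rank (adjusted permutation p = 0.0477 each) but not by Pearson's r (0.0839 and 0.0791), and Tdrd1 no longer passed by rank without those 2 mice (0.0923). The other 6 genes passed by neither measure, with r of 0.0218 for Rsg1 to 0.398 for Zfp991. Wwox had r = 0.157. Cortical Tdrd1, at 0 to 15 reads per library, was under the count filter. Such relations were not computed for all genes, so they are not read as particular to these 10.

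The position of the genes was not used to choose them beyond their distance from Msh6. Of all tested genes, 0.177% in striatum and 0.153% in cortex passed in Q140 Msh6-/- against Q140 mice. In Msh6-/- against wild-type mice the shares were 0.0971% and 0.131%. The 5 nearest tested genes on each side made 92 neighbours in striatum and 93 in cortex. A single gene passed among them in each comparison of Msh6 loss (1.09% and 1.08%). It was Znf41-ps, a neighbour of both Zfp991 and Zfp992, which was lower in Q140 Msh6-/- than in Q140 mice in striatum (log2 difference -1.77 ± 0.26, adjusted p = 2.86e-05) and cortex (-1.61 ± 0.23, adjusted p = 2.32e-05), and lower in Msh6-/- than in wild-type mice in striatum (-1.46 ± 0.22, adjusted p = 0.000116) and cortex (-1.21 ± 0.23, adjusted p = 0.00285; edgeR quasi-likelihood throughout). Znf41-ps lies 619 kb from Zfp992 and 1302 kb from Zfp991, and Zfp992 lies 662 kb from Zfp991. Whether Znf41-ps is among the genes that matched Zfp991 and Zfp992 by sequence is not given here. Its counts may share reads with theirs, which was not tested. No tested neighbour of Wwox, Bub1b, Rec8, Tdrd1, Rps4l, Sec24d, Col5a2 or Rsg1 passed. With shares of all genes this low, these counts are not read as a result about position.

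**Figure D4:**
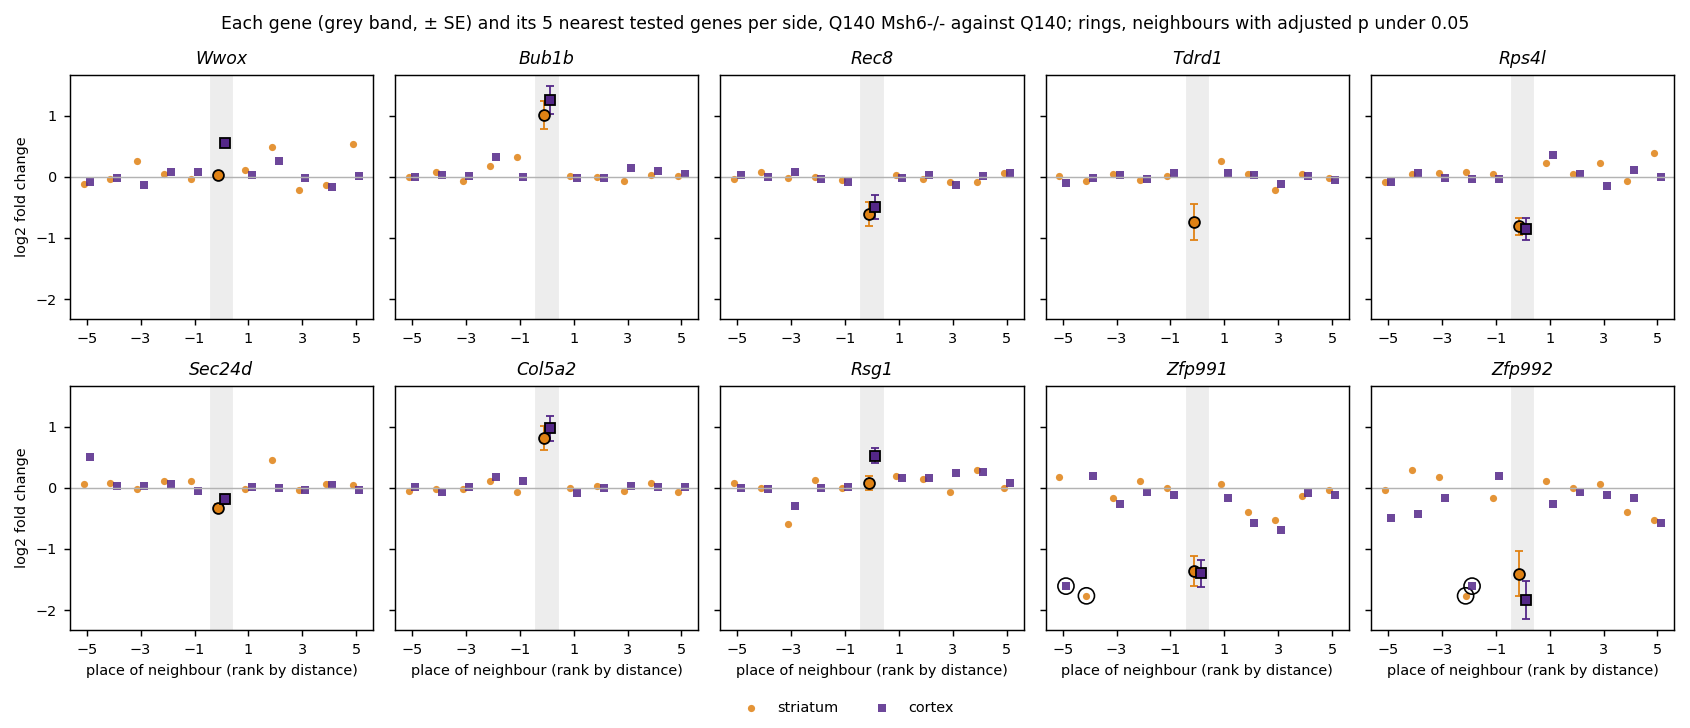
Log2 fold change of Q140 Msh6-/- against Q140 (y axis) for each of the 10 genes (grey band, ± SE) and its 5 nearest tested genes on either side (x axis, rank by distance), in striatum (orange circles) and cortex (purple squares). Rings mark neighbours with an adjusted p under 0.05, which are Znf41-ps beside Zfp991 and Zfp992.

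The gene most like each member across the 48 libraries of a tissue was sought by Pearson's r of log2 CPM. Genes tested in both tissues were ranked by the lower r of the tissues, with its sign. A gene that moved oppositely to a member, as Msh6 does for members that rose without it, could therefore not be named. These correlations include the differences between genotypes, for which the genes were chosen, and are given as a description. For Zfp991, Rps4l and Rec8 the most alike of these genes was Msh6 itself. Its r was 0.760 in striatum and 0.772 in cortex for Zfp991, 0.720 and 0.675 for Rps4l, and 0.582 and 0.591 for Rec8. For Zfp992 the most alike was Zfp991 (0.711 and 0.781). Nat8f2 was the most alike for both Col5a2 (0.627 and 0.728) and Bub1b (0.492 and 0.699). The remaining likenesses were Rfx3 for Sec24d (0.500 and 0.582), Ccp110 for Rsg1 (0.406 and 0.539), 4930447C04Rik for Tdrd1 (0.387 and 0.406) and Esrrg for Wwox (0.343 and 0.429).

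Other genes of the members' pathways were read from 8 lists without the members. In Q140 Msh6-/- against Q140 mice, none passed among 16 tested spindle checkpoint genes in striatum and 12 in cortex, 14 and 13 cohesin genes, 14 and 15 COPII genes, 10 fibrillar collagen genes, 10 ciliogenesis genes, 32 small ribosomal subunit genes or 14 large genes of common fragile sites. Of all tested genes, 0.177% in striatum and 0.153% in cortex passed, so such counts in lists this short are not read as a result. The medians of these 7 lists lay between -0.02 and 0.14 in striatum and between -0.07 and 0.07 in cortex on the log2 scale. The median of all genes was 0.00 in each tissue. The piRNA list had a single passing gene, Rnf17, a Tudor-domain gene like Tdrd1, out of 10 tested in striatum and 12 in cortex. Tdrd1 itself did not pass in this comparison in striatum and was not tested in cortex. Rnf17 averaged 0.422 ± 0.261 CPM in Q140 Msh6-/- striatum and 1.88 ± 0.655 CPM in Q140 striatum (log2 difference -2.15 ± 0.38, adjusted p = 0.00127), and 0.332 ± 0.194 CPM in Q140 Msh6-/- cortex and 1.11 ± 0.346 CPM in Q140 cortex (SD, n = 8 each; -1.72 ± 0.36, adjusted p = 0.0154; edgeR quasi-likelihood). In Msh6-/- against wild-type mice no gene of the 8 lists passed in either tissue, beside 0.0971% of all genes in striatum and 0.131% in cortex.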

How the data were processed

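RNA from striatum and cortex of 48 mice had been sequenced after a stranded TruSeq library preparation, per the labels' protocols. Per the submitters' processing notes, the tools were STAR 2.7.5c, SAMtools 1.10 and HTSeq 0.12.3 with GRCm38 (mm10). The authors deposited whole-number read counts per gene and FPKM values; the strand setting of the counting is not given in the sources used here. Replicates within a tissue were separate mice, and each mouse gave a library of each tissue.

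From the counts, edgeR 4.0.16 (R 4.3.3) fitted the 48 libraries of each tissue with genotype and sex as terms, TMM scaling and filterByExpr (minimum count 10, total 15), and gave quasi-likelihood tests with Benjamini-Hochberg adjustment over all tested genes. SE is the log2 fold divided by the square root of F. Fits over both tissues tested tissue differences. FPKM served for levels between genes and for limma 3.58.1 on log2(FPKM + 0.1) and log2(FPKM + 1), and DESeq2 1.42.0 was run as an alternative on the counts. Further alternatives changed the scaling to RLE, dropped the filter or the sex term, added the prefix of the mouse number, fitted just the compared groups, used a replicate block for the mouse, or left out Q140 Msh6-/- mouse 21-3. The fitting steps were tested on simulated data. Same-mouse relations used 100000 permutations.

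The labels give the same animal number to the cortex and striatum of a mouse, and that number paired the tissues. The 10 genes and the gene lists were chosen with earlier results of these data known. All 10 genes are reported, and non-members were named by being a neighbour past the threshold, the most alike gene, a passing list gene, a related copy or an overlapping gene. Libraries held 12403528 to 22886441 counts, and the rarest of the genes had few reads per library.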

Additional observations from a re-analysis of the deposited data

Results flagged for a closer look

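In 120 groups of 8 mice (10 genes, 6 genotypes and both tissues), 8 values stood apart from the rest of their group by Dixon's criterion, which chance meets in about 1 of 20 groups. The highest were Rps4l in Q140 Msh6+/- cortex, mouse 15-1, at 9.05 CPM (next 4.62), Col5a2 in Msh6-/- striatum, mouse 24-3, at 7.70 CPM (next 3.93), and Rsg1 in Q140 Msh6+/- cortex, mouse 16-4, at 2.30 CPM (next 1.73). Zfp992 was highest in Msh6-/- striatum, mouse 14-3, at 1.22 CPM (next 0.500), and in Q140 Msh6-/- striatum, mouse 21-3, at 0.598 CPM (next 0.272). The lowest were Col5a2 in Q140 cortex, mouse 29-3, at 2.12 CPM (next 2.92), Col5a2 in wild-type cortex, mouse 20-2, at 1.92 CPM (next 2.69), and Rsg1 in Msh6+/- striatum, mouse 19-2, at 1.91 CPM (next 2.64).

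Wwox differed between tissues in the effect of Msh6 loss on the Q140 background, by -0.53 on the log2 scale for striatum minus cortex.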

How the results depend on the processing

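Counts of the 10 genes past the threshold moved as follows. In Q140 Msh6-/- against Q140 striatum the 4 genes became 2 (Rps4l and Zfp991) with the animal number prefix as a covariate and 2 with limma on log2(FPKM + 0.1); without mouse 21-3 they were 5. In cortex the 7 became 4 when only these 2 groups were fitted (Bub1b, Rps4l, Wwox and Zfp991; Zfp992 was not tested there, being under the filter) and were 7 without mouse 21-3. In Msh6-/- against wild-type striatum the 5 became 3 with the prefix. With the prefix the cortical counts were 6 in place of 8 for Msh6-/- against wild type and 5 in place of 7 for Q140 Msh6-/- against Q140, where Col5a2 and Rsg1 were lost. Because Msh6-/- against wild type chose the genes, nothing is read from its counts or from those kept with the prefix. In its main fit 0.0971% of all genes passed in striatum and 0.131% in cortex. In Q140 against wild-type striatum the 2 became 1, Zfp992, with each of RLE scaling, no filter, DESeq2 and only the 2 groups, and in Q140 Msh6+/- against Msh6+/- striatum they became 1, Rsg1, with both limma fits. In Q140 Msh6-/- against Msh6-/- striatum they were 3 without mouse 21-3, with Zfp992 at -1.07 (adjusted p = 0.0467, edgeR quasi-likelihood). By sex, 1 gene, Sec24d, passed in cortex with DESeq2 and without mouse 21-3. The cause of these moves was not tested. No direction reversed among the single-gene results that passed under at least 1 setting. Other replicates were not left out in turn.

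Over all genes, Q140 Msh6-/- against Q140 gave 31 genes in striatum (12 to 50 over the alternatives) and 27 in cortex (19 to 34), and Msh6-/- against wild type gave 17 in striatum (13 to 27). In cortex, Q140 against wild type gave 3 (1 to 22), Q140 Msh6+/- against Msh6+/- 34 (9 to 145), Q140 Msh6-/- against Msh6-/- 24 (14 to 35) and Q140 Msh6+/- against Q140 2 (1 to 3). Msh6+/- against wild type gave 2 in striatum (0 to 2) and 1 in cortex (1 to 2), and the tissue difference 1 (1 to 9). With the mouse as a replicate block, 10 genes still differed between tissues and Wwox still differed in its tissue difference (-0.53), so the block changed no call. Few reads limit Tdrd1, Zfp991 and Zfp992.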
